A study of Mus musculus with 38 samples.

Results

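Tuft cells are rare chemosensory cells of the gut epithelium, and the 10 genes followed here, Pou2f3, Gnat3, Trpm5, Dclk1, Avil, Sh2d6, Alox5, Ptgs1, Il25 and Il17rb, are commonly used to recognise them or belong to their signalling chain. They were taken as a list of symbols and matched to 10 of the 55416 gene identifiers of the count tables. The data were 38 bulk RNA libraries from mouse intestinal tract, whose columns in the Apc table carried the word colon. The series asked how a black rice diet altered the gut of mice with colorectal cancer. The Apc set had 18 libraries, 3 each of black rice, control diet and WT in code F and in code M. WT libraries carried no treatment in their labels. The AOM set had 12 libraries, 3 each of black rice and control diet in code F and in code M. The third set had 4 black rice and 4 control libraries with no code. Its column headers carried FMT_BR, which the labels did not expand. The labels expanded neither Apc, AOM nor WT, gave no strain, allele, dose, age or time, and did not say whether replicates came from separate animals, so p-values measure the spread between these libraries. Xist, the RNA of the inactive X chromosome, stood at 333 to 2266 CPM (the count of a gene divided by all reads assigned to genes in the library, times 1000000) in the 15 F libraries, at 0.019 to 0.848 CPM in the 15 M libraries and at 0.0549 to 0.416 CPM in the 8 libraries of the third set. The Y-linked genes Ddx3y, Uty, Kdm5d and Eif2s3y summed to 0 to 0.396 CPM in F, 82.25 to 263.2 CPM in M and 120.2 to 224.1 CPM in the third set. By these genes the F libraries were female, and the M libraries and the third set were male.

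Tuft cells sense luminal contents with parts of the taste transduction chain, in which a G protein opens a calcium-activated channel. In the mouse small intestine, signals from worms or protists make them release interleukin 25 and leukotrienes, which act on group 2 innate lymphoid cells. The interleukin 13 these cells make pushes the epithelium towards more tuft and goblet cells. In the colon tuft cells are fewer, and a subset of tumour cells in mouse intestinal adenomas carries Dclk1.

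Reads assigned to genes, in units of 1000000 (M) per library, numbered 44.8 to 61.9 M in the Apc set, 5.37 to 55.1 M in the AOM set and 66.6 to 91.1 M in the third set. Replicate 3 of the AOM black rice F group was the library with 5.37 M reads. In that library 24.5% of reads fell on hepatocyte markers (95% Clopper-Pearson interval from 24.488 to 24.561%, for counting error only), against at most 0.0242% in any other library. It was left out, so the AOM black rice F group had 2 libraries and 37 libraries remained. The 10 epithelial markers used as a check on tissue were all detected in every remaining library. In bulk tissue, fewer cells of a type and less RNA per cell cannot be told apart.

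All 10 members were measured in whole tissue, most of them at low levels. Levels of different genes are set side by side per kilobase of exon (CPM per kb, with exon lengths from an annotation of the earlier mouse build GRCm38). The length joins all annotated exons of a gene, 15296 bases for Dclk1 against 1064 to 6398 bases for the other members. The order depends on it, since by CPM alone Dclk1 was highest in the Apc set, with a mean of 25.5 CPM against 22.3 CPM for Ptgs1. In the Apc set Ptgs1 was highest with 5.74 ± 1.59 CPM per kb, followed by Sh2d6 with 4.04 ± 2.29 and Avil with 2.37 ± 0.735 CPM per kb (SD, n = 18). Dclk1 at 1.67 ± 0.411, Trpm5 at 1.61 ± 0.673, Gnat3 at 1.45 ± 0.618, Il17rb at 1.16 ± 0.288, Alox5 at 1.02 ± 0.489 and Pou2f3 at 0.898 ± 0.381 CPM per kb came next. From Ptgs1 down to Pou2f3, each neighbour in this order differed from the next by less than the larger of their SDs. Il25 was last at 0.0958 ± 0.0754 CPM per kb, a gap from Pou2f3 larger than either SD.

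The order moved between sets. In the AOM set Avil came first with 7.01 ± 6.15 CPM per kb and Gnat3 next to last with 0.388 ± 0.17 CPM per kb (SD, n = 11). In the third set Ptgs1 led with 12.5 ± 4.98 CPM per kb, and Sh2d6 at 7.49 ± 1.24 and Avil at 3.41 ± 0.42 CPM per kb followed (SD, n = 8). There the library ranges of Sh2d6 and Avil did not overlap, nor did those of Avil and Trpm5. The tables share no library, so differences between sets are given as values with no test.

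Il25, the cytokine of the circuit, was counted from 0 to 24 reads per library. It had 0 reads in 5 of the 37 libraries, each of which allows at most 0.0564 to 0.0791 CPM (3 reads). It passed the filter on low counts in the third set, and the other 9 members were tested in all 3 tables.

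**Figure D1:**
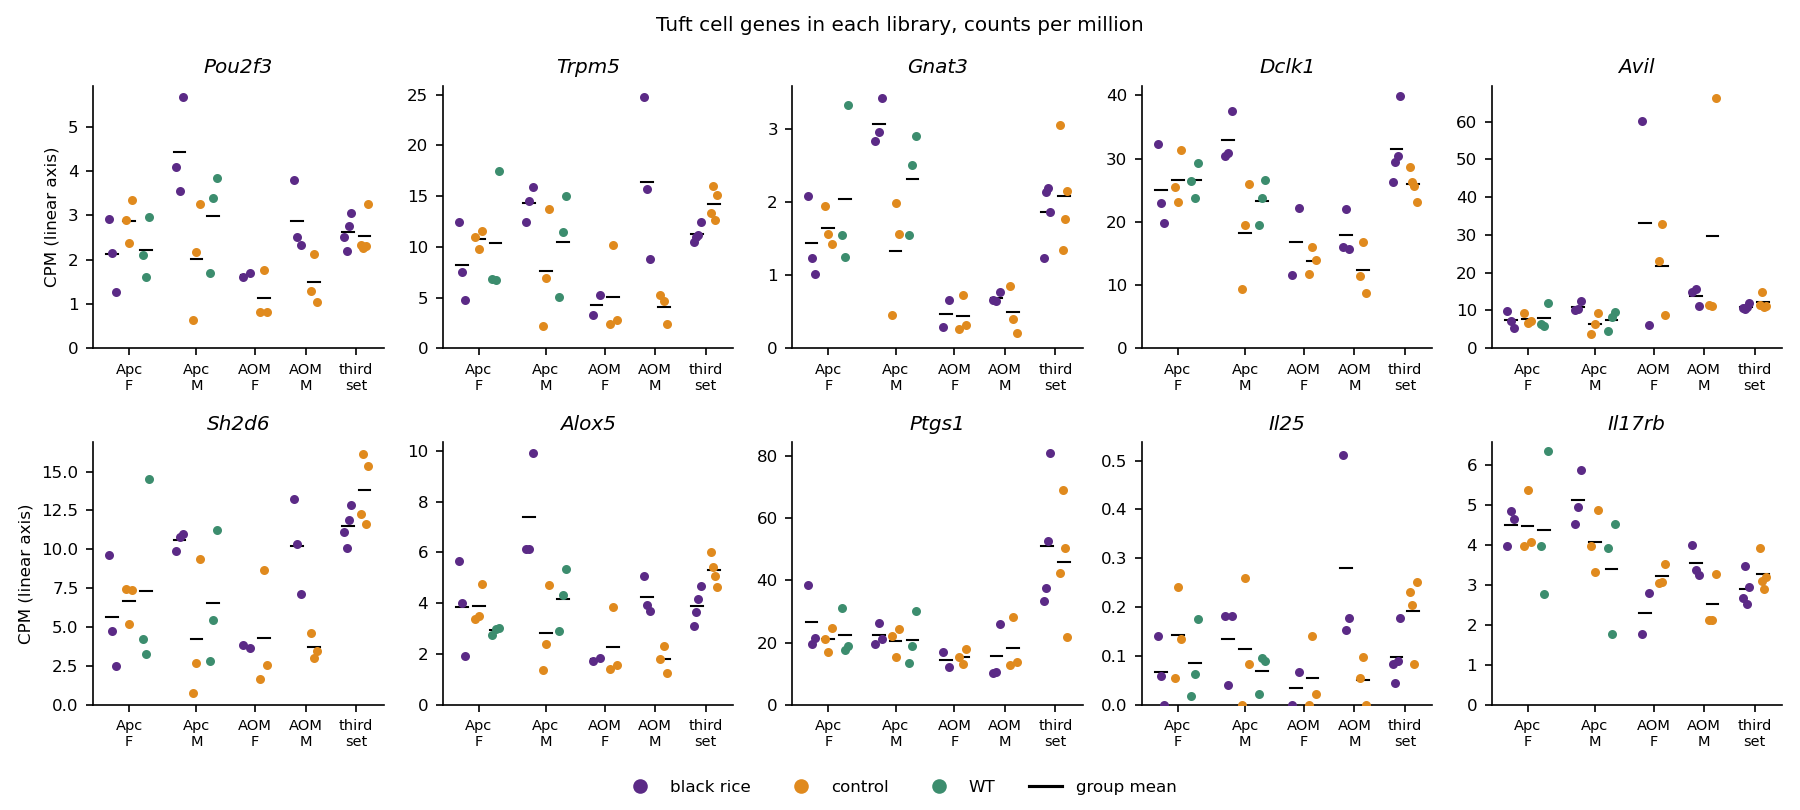
CPM of each member in each of the 37 libraries on linear axes, with black rice, control and WT libraries as points and group means as lines. In code M of the Apc set the 3 black rice libraries sit above the 3 control libraries for Pou2f3, Gnat3, Dclk1, Avil, Sh2d6 and Alox5, while Avil in the AOM set spreads from 6.18 to 66.3 CPM.

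Pou2f3 is the POU-domain transcription factor that mice need to form tuft cells, and POU factors are known to bind the octamer ATGCAAAT. The 250 bases before the start site were available from RefSeq (build GRCm38.p6) for 8 of the 10 members, in 9 windows, and not for Pou2f3 and Il25. Neither ATGCAAAT nor ATGNAAAT, on either strand, occurred in any of these 9 windows, which says only that these letters are not there. Over all 32851 windows of the table, 1.6% held ATGCAAAT and 5.03% held ATGNAAAT. The shorter core ATGCAAA, the first 7 letters of the octamer and searched after the windows had been seen, occurred in 4.12% of all windows and in 1 member, Avil, at 2 places. Trpm5 and Sh2d6, which varied most closely with the other members in the Apc set, and Avil, which left them in the AOM set, are shown 5′ to 3′ on the strand of the gene, with matches to ATGCAAA in capitals. The windows lie at chr7:143094643-143094892 (minus strand) for Trpm5, chr6:72520037-72520286 (minus strand) for Sh2d6 and chr10:127000459-127000708 (plus strand) for Avil.
Trpm5: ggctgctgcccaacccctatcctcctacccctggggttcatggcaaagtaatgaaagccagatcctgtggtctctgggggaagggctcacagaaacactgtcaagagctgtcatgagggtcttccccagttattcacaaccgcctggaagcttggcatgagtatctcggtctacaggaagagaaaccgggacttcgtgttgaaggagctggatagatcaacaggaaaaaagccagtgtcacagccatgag
Sh2d6: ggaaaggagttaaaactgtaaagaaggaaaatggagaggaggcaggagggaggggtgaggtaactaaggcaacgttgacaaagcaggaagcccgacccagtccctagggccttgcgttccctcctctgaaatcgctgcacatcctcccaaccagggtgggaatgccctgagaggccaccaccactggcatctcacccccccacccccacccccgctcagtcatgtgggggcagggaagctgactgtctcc
Avil: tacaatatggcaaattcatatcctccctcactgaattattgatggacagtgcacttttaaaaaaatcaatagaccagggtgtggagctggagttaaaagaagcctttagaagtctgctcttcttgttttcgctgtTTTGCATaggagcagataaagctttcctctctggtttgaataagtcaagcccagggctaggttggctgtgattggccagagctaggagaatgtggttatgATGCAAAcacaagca
The Avil matches begin 115 and 15 bases before the start, the first on the opposite strand. The other windows, which are not shown, had a share of G and C between 40.8% in Gnat3 and 72% in Il17rb, against 52.8% in Trpm5, 59.2% in Sh2d6 and 42% in Avil.

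No member passed an adjusted p of 0.05 in any of the 13 comparisons, and the lowest adjusted p of a member was 0.325 (edgeR's quasi-likelihood test, Benjamini-Hochberg adjustment over all genes tested). DESeq2 and limma-voom also called 0 members in each of them. Few genes of any kind were called by edgeR, between 0 and 16 per comparison. The values below therefore describe directions and overlaps that did not pass the test. Median changes over all genes lay between -0.07 and 0.083 on the log2 scale.

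In Apc tissue of code M, most tuft cell genes were higher with black rice than with the control diet, and the 3 black rice libraries lay above all 3 control libraries for 6 of 9 tested members. That placement was met by 4.82% of the 21624 genes tested, and the reverse placement by 8.65% of genes and by 0 members. All 9 changes were above 0, with a median of 0.95 and a range of 0.17 to 1.42 on the log2 scale. Without replicate 1 of the control M libraries the median was 0.55. By edgeR, 0 of 9 members were called, against 0.0324% of all genes. Unadjusted p was under 0.05 for 4 of 9 members and for 8.54% of all genes.

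Pou2f3 stood at 4.09, 3.56 and 5.67 CPM in Apc black rice M libraries, against 0.639, 2.17 and 3.25 CPM in Apc control M libraries. Its log2 change was 1.16 (SE 0.49, edgeR unadjusted p = 0.0314, adjusted p = 0.525). Every black rice library was above every control library, and replicate 1 of the controls was far below the other 2.
Gnat3, the taste G protein alpha subunit gustducin, was at 2.83, 2.95 and 3.42 CPM in black rice M libraries, against 0.451, 1.99 and 1.56 CPM in control M libraries. The groups did not overlap, and the log2 change was 1.21 (SE 0.5, edgeR unadjusted p = 0.0283, adjusted p = 0.515). Trpm5, the calcium-activated cation channel of the chain, was at 12.5, 14.5 and 15.9 CPM in black rice M libraries, against 2.16, 6.9 and 13.7 CPM in control M libraries. Replicate 3 of the controls lay within the black rice range, so these groups overlapped.

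Dclk1, a doublecortin-like kinase that binds microtubules, was at 30.4, 30.9 and 37.5 CPM in black rice M libraries, against 9.44, 19.5 and 26 CPM in control M libraries. The groups did not overlap, and the log2 change was 0.88 (SE 0.29, edgeR unadjusted p = 0.00851, adjusted p = 0.422). Sh2d6, an SH2-domain adaptor-type protein, was at 9.91, 10.8 and 11 CPM in black rice M libraries, against 0.715, 2.68 and 9.36 CPM in control M libraries. Its 3 black rice libraries were close together and above all controls, and its control libraries ran from the lowest value of any Apc library to one near the black rice range. Avil, the actin-binding protein advillin, was at 10.1, 10.3 and 12.6 CPM in black rice M libraries, against 3.65, 6.38 and 9.42 CPM in control M libraries. These groups did not overlap either.

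Alox5, the 5-lipoxygenase that starts leukotriene synthesis, gave the lowest p of the members here. It was at 6.15, 6.13 and 9.92 CPM in black rice M libraries, against 1.35, 2.41 and 4.71 CPM in control M libraries, a log2 change of 1.42 (SE 0.43, edgeR unadjusted p = 0.00439, adjusted p = 0.384). Its groups did not overlap. Ptgs1, the cyclooxygenase COX-1 of prostaglandin synthesis, was at 19.4, 26.4 and 21.2 CPM in black rice M libraries, against 22, 15.4 and 24.3 CPM in control M libraries. Il17rb, a receptor subunit for interleukin 25, was at 4.52, 4.93 and 5.87 CPM in black rice M libraries, against 3.97, 3.31 and 4.87 CPM in control M libraries. For both genes the groups overlapped. Il25 was at 0.182, 0.0404 and 0.182 CPM in black rice M libraries, against 0, 0.259 and 0.0823 CPM in control M libraries, on 16 reads at most.

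In Apc tissue of code F the members showed no such separation. Black rice F libraries lay wholly above control F libraries for 0 of 9 members and wholly below for 0 of 9, placements that 9.32% and 10% of all genes met. Trpm5 was at 12.5, 7.47 and 4.8 CPM in black rice F libraries, against 10.9, 9.81 and 11.5 CPM in control F libraries. Sh2d6 was at 9.66, 4.71 and 2.5 CPM in black rice F libraries, against 7.45, 5.21 and 7.39 CPM in control F libraries. Black rice F replicate 1 was above the control libraries for both genes and replicate 3 was below them. The median change was -0.1 on the log2 scale, with 2 of 9 members above 0 and a range of -0.45 to 0.33. edgeR called 0 of 9 members and 0% of all genes, and unadjusted p was under 0.05 for 0 of 9 members and for 10.2% of genes.

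The difference of the diet change between the codes, F minus M, was below 0 for 8 of 9 members in the Apc set, with a median of -1.33. Without replicate 1 of the control M libraries that median was -0.8. The difference was -1.42 for Alox5 (SE 0.6, edgeR unadjusted p = 0.0303, adjusted p = 0.515), -0.98 for Dclk1 (SE 0.41, unadjusted p = 0.0305, adjusted p = 0.515) and -1.61 for Pou2f3 (SE 0.69, unadjusted p = 0.0341, adjusted p = 0.524). edgeR called 0 of 9 members and 0% of genes, with 3 of 9 members and 8.89% of genes under an unadjusted p of 0.05. A difference between the codes was therefore not shown for any member.

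Averaged over both codes of the Apc set, all 9 members lay above 0 with a median of 0.36 and a range of 0.19 to 0.71. Alox5 had 5.66, 4.01, 1.93, 6.15, 6.13 and 9.92 CPM over the black rice F and M libraries, against 3.37, 3.5, 4.75, 1.35, 2.41 and 4.71 CPM over the control libraries, a log2 change of 0.71 (SE 0.3, edgeR unadjusted p = 0.0301, adjusted p = 0.443). The groups overlapped. Alox5 was the 1 member of 9 under an unadjusted p of 0.05, which 10.3% of genes reached, and edgeR called 0 of 9 members and 0.0139% of genes.

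**Figure D2:**
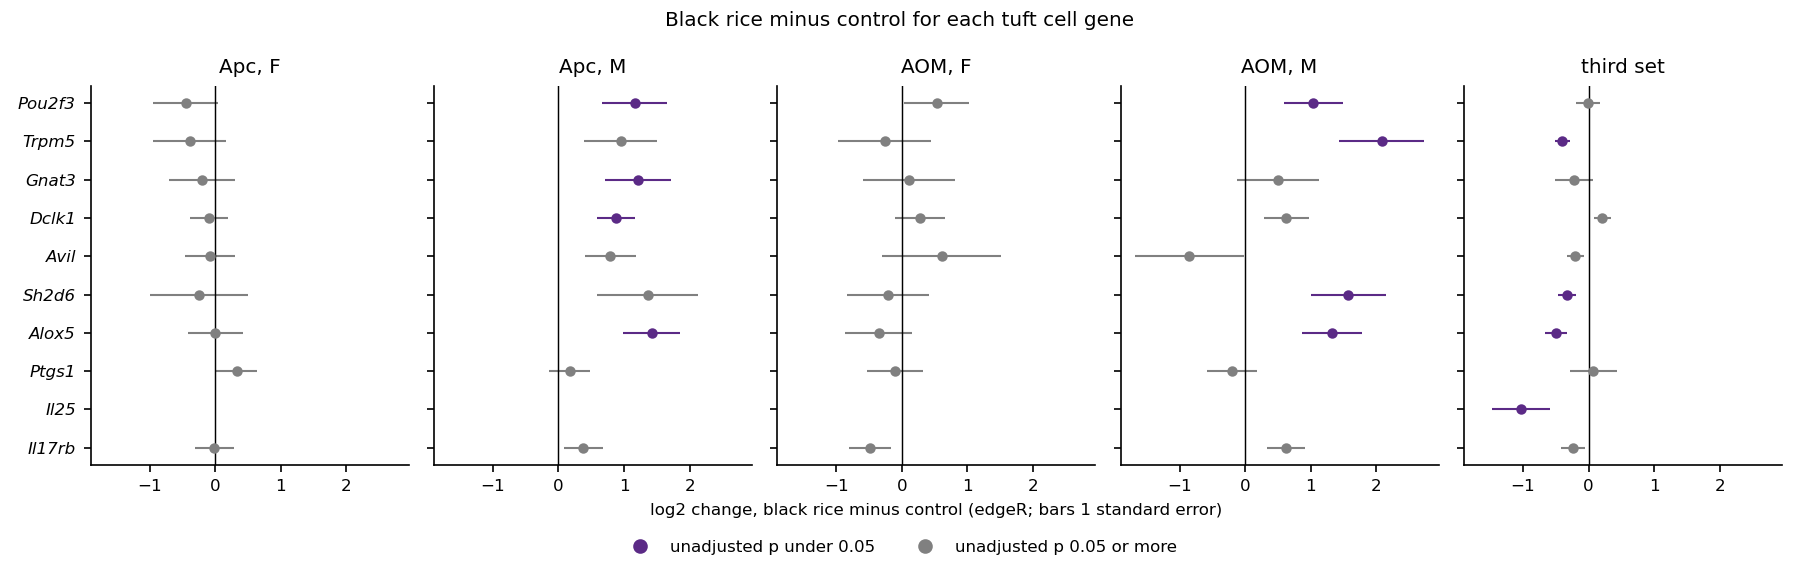
log2 change, black rice minus control, of each member with 1 standard error (edgeR), in 5 panels from Apc F to the third set. Changes in code M of the Apc set all lie above 0, while 8 of 10 in the third set lie below it, and none passed an adjusted p of 0.05.

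In AOM tissue of code M a smaller number of members lay above the controls. Trpm5, Pou2f3, Sh2d6 and Alox5 lay wholly above the control libraries, 4 of 9 tested members, a placement that 7.03% of the 21895 genes tested met. The reverse placement was met by 0 members and 7.28% of genes. The median change was 0.63 with 7 of 9 members above 0 and a range of -0.85 to 2.08, and without replicate 1 of the control M libraries the median was 1.02. edgeR called 0 of 9 members and 0% of genes, and unadjusted p was under 0.05 for 4 of 9 members and 13.8% of genes. DESeq2 called 255 genes in this comparison, none of them a member.

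Trpm5 had the largest change of any member in any of the black rice and control comparisons tested. It was at 24.7, 15.7 and 8.83 CPM in AOM black rice M libraries, against 5.25, 4.65 and 2.36 CPM in AOM control M libraries, a log2 change of 2.08 (SE 0.65, edgeR unadjusted p = 0.00913, adjusted p = 0.331). The groups did not overlap, and black rice replicate 1 was above every library of the Apc set and of the third set as well. Pou2f3 was at 3.8, 2.51 and 2.34 CPM in black rice M libraries, against 1.29, 2.12 and 1.05 CPM in control M libraries, a log2 change of 1.04 (SE 0.45, edgeR unadjusted p = 0.0403, adjusted p = 0.353). Its lowest black rice value and highest control value were close.

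Sh2d6 was at 13.2, 10.3 and 7.13 CPM in AOM black rice M libraries, against 4.57, 3.01 and 3.46 CPM in AOM control M libraries, a log2 change of 1.57 (SE 0.57, edgeR unadjusted p = 0.0197, adjusted p = 0.336). Alox5 was at 5.08, 3.92 and 3.71 CPM in black rice M libraries, against 1.81, 2.32 and 1.25 CPM in control M libraries, a log2 change of 1.32 (SE 0.46, edgeR unadjusted p = 0.016, adjusted p = 0.331). For both genes the groups did not overlap, and black rice replicate 1 was highest, as for Trpm5 and Pou2f3. Il25 was at 0.512, 0.154 and 0.177 CPM in black rice M libraries, on 6 to 24 reads, against 0.0545, 0.0966 and 0 CPM in control M libraries, on 0 to 5 reads. It was too low to be tested there.

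Dclk1 and Gnat3 did not separate in AOM tissue of code M. Dclk1 was at 16, 22 and 15.7 CPM in black rice M libraries, against 11.5, 16.8 and 8.67 CPM in control M libraries. Gnat3 was at 0.662, 0.64 and 0.772 CPM in black rice M libraries, against 0.853, 0.406 and 0.215 CPM in control M libraries, on 10 to 47 reads. Il17rb was at 3.99, 3.35 and 3.25 CPM in black rice M libraries, against 2.12, 2.12 and 3.26 CPM in control M libraries. In all 3 genes 1 control library lay within the black rice range or above it. Matched by replicate number, Dclk1 was higher with black rice in each of the 3 pairs, and Gnat3 and Il17rb were not. The labels name no pairs, and the share of all genes with such a placement was not counted.

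Marker lists of other cell types also had changes between the same AOM groups, with 0 genes of these lists called by edgeR. Changes above 0 numbered 0 of 6 for neutrophil, 0 of 6 for B and plasma cell and 0 of 5 for group 2 innate lymphoid markers. They numbered 1 of 10 for smooth muscle and 2 of 7 for goblet markers. Enteroendocrine markers had 6 of 7 above 0, enteric neuron and glia markers 8 of 9 and eosinophil markers 2 of 2 tested. The macrophage and mast cell sums below overlapped between the diets. Macrophage markers summed to 65.85 to 118.8 CPM in black rice M libraries, against 116.9 to 206.5 CPM in control M libraries, with 0 of 7 changes above 0, a median of -0.73 and none of the 7 at 0 reads. Mast cell markers summed to 46.4 to 72.59 CPM in black rice M libraries, against 56.94 to 185.1 CPM in control M libraries, with 1 of 8 changes above 0 and a median of -2.01. Hepatocyte markers summed to 15.48 to 33.7 CPM in black rice M libraries, against 39.03 to 242.2 CPM in control M libraries, with 1 of 6 tested changes above 0 and a median of -2.02. Fcer1a, Ms4a2, Serpina1a and Fgb had 0 reads in 1 or 2 of the 3 black rice M libraries, and Serpina1a and Fgb in 1 control M library each. The part of these cell types in the tuft cell values was not tested. The epithelial sum was 12360 to 13080 CPM in black rice M libraries, against 7930 to 12040 CPM in control M libraries, with 0 of the 10 markers at 0 reads in either group. With their mean level as a covariate the median change of the members was 0.68 and edgeR called 0 of them. In Apc tissue of code M the same sum was 7140 to 10590 CPM in black rice libraries, against 9180 to 11240 CPM in control libraries. With the covariate the median change of the members was 1.05 there. The part of the epithelial share in the tuft cell values was not tested.

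In AOM tissue of code F the 2 black rice libraries lay wholly below the control libraries for 1 of 9 members, Il17rb, and wholly above for 0, placements that 11.1% and 8.38% of genes met. Il17rb was at 1.76 and 2.8 CPM in black rice F libraries, against 3.03, 3.07 and 3.51 CPM in control F libraries. Trpm5 was at 3.32 and 5.28 CPM in black rice F libraries, against 2.35, 10.2 and 2.75 CPM in control F libraries. Control replicate 2 was the high library for Trpm5, and also for Sh2d6, Alox5 and Pou2f3. The median change was -0.1 with 4 of 9 members above 0, and it was 0.73 without that library. edgeR called 0 of 9 members and 0% of genes, and unadjusted p was under 0.05 for 0 of 9 members and 3.27% of genes.

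The F minus M difference of the diet change in the AOM set was -2.34 for Trpm5 (SE 0.98, edgeR unadjusted p = 0.0362, adjusted p = 0.342), -1.67 for Alox5 (SE 0.69, unadjusted p = 0.0358, adjusted p = 0.342) and -1.11 for Il17rb (SE 0.43, unadjusted p = 0.0268, adjusted p = 0.325). With the library that held hepatocyte markers included, the difference of Il17rb was 0.98. With 1 library left out, the median of the members ran from -1.26 without black rice F replicate 2 to -0.24 without control F replicate 2, against -0.51. The 3 genes named were 3 of 9 members under an unadjusted p of 0.05, against 14% of genes, and edgeR called 0 of 9 members and 0% of genes. Averaged over both codes, the AOM change was above 0 for 7 of 9 members with a median of 0.45. Pou2f3 was the 1 member of 9 under an unadjusted p of 0.05, reached by 3.06% of genes, with a log2 change of 0.79 (SE 0.33, edgeR unadjusted p = 0.0377, adjusted p = 1). Again 0 of 9 members and 0% of genes were called.

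In the third set Trpm5, Sh2d6, Alox5 and Il25 stood lower in black rice than in control libraries. Trpm5 was at 10.5, 10.9, 11.2 and 12.4 CPM in black rice libraries, against 13.3, 16, 12.7 and 15.1 CPM in control libraries, a log2 change of -0.4 (SE 0.11, edgeR unadjusted p = 0.00612, adjusted p = 0.515). It was the 1 member of 10 whose black rice libraries all lay below the control libraries, a placement that 1.56% of the 20831 genes tested met. The reverse placement was met by 0 members and 3.13% of genes. Sh2d6 was at 11.1, 10.1, 11.9 and 12.9 CPM in black rice libraries, against 12.2, 16.1, 11.6 and 15.4 CPM in control libraries, a log2 change of -0.33 (SE 0.14, edgeR unadjusted p = 0.0432, adjusted p = 0.622).

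Alox5 in the third set was at 3.1, 3.66, 4.16 and 4.69 CPM in black rice libraries, against 6.02, 5.43, 5.08 and 4.64 CPM in control libraries, a log2 change of -0.5 (SE 0.17, edgeR unadjusted p = 0.0131, adjusted p = 0.545). The highest black rice library just exceeded the lowest control library. Il25 was at 0.0834, 0.045, 0.0883 and 0.177 CPM in black rice libraries, against 0.231, 0.203, 0.0835 and 0.252 CPM in control libraries, on 3 to 21 reads, a log2 change of -1.03 (SE 0.44, edgeR unadjusted p = 0.044, adjusted p = 0.622). Dclk1 did not share this direction. It was at 26.2, 29.4, 30.3 and 39.9 CPM in black rice libraries, against 28.6, 26.3, 25.6 and 23.1 CPM in control libraries, a log2 change of 0.21 (SE 0.13, edgeR unadjusted p = 0.129, adjusted p = 0.711).

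Pou2f3 had a log2 change of -0.01 in the third set (SE 0.18), at 2.5, 2.19, 2.75 and 3.05 CPM in black rice libraries, against 2.34, 2.27, 2.31 and 3.25 CPM in control libraries. The median change of the 10 members was -0.23 with 2 of 10 above 0. edgeR called 0 of 10 members and 0% of genes, and unadjusted p was under 0.05 for 4 of 10 members and 7.94% of genes. Epithelial markers summed to 11910 to 13190 CPM in black rice libraries, against 13010 to 15050 CPM in control libraries, with none at 0, so this sum also lay lower with black rice apart from a small overlap. With the mean of these markers as a covariate the median change of the members was -0.59.

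No member passed the test between Apc control and WT libraries. The median change, control minus WT over both codes, was -0.19, with 1 of 9 members above 0 and a range of -0.59 to 0.11. Trpm5 was at 10.9, 9.81, 11.5, 2.16, 6.9 and 13.7 CPM in control F and M libraries, against 6.78, 6.76, 17.5, 5.07, 11.4 and 15 CPM in WT F and M libraries. The groups overlapped widely, and the WT libraries themselves spread as far as the controls. edgeR called 0 of 9 members and 0% of genes, and unadjusted p was under 0.05 for 0 of 9 members and 4.25% of genes.

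Black rice minus WT in the Apc set, which shares black rice libraries with black rice minus control and WT libraries with control minus WT, had a median of 0.17 with 8 of 9 members above 0 and a range of -0.09 to 0.58. edgeR called 0 of 9 members and 0.0139% of genes, and unadjusted p was under 0.05 for 0 of 9 members and 8.17% of genes. Dclk1 in code M was at 30.4, 30.9 and 37.5 CPM in black rice libraries, against 19.5, 23.8 and 26.6 CPM in WT libraries. In code M the black rice libraries lay wholly above the WT libraries for 4 of 9 members, Dclk1, Alox5, Avil and Il17rb, and wholly below for 0, placements that 2.53% and 6.7% of genes met. In code F these counts were 0 and 0 of 9, against 9.41% and 4.81% of genes.

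No member passed the test between codes F and M over all diets. F minus M in the Apc set had a median of -0.18 with 2 of 9 members above 0 and a range of -0.44 to 0.02. edgeR called 0 of 9 members and 0.074% of genes, and unadjusted p was under 0.05 for 0 of 9 members and 15.1% of genes. In the AOM set the median was -0.51 with 1 of 9 members above 0 and a range of -0.96 to 0.35. There edgeR called 0 of 9 members and 0.0365% of genes, and 0 of 9 members and 8.44% of genes had an unadjusted p under 0.05.

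Replicates of 1 group could differ widely. In the Apc control M group, Sh2d6 had 38 to 455 reads, Trpm5 115 to 667 reads and Pou2f3 34 to 158 reads. The same library was lowest, and another one highest, for all 3 genes. Whether libraries were high or low together was measured by correlating each member with the mean of the other members after subtracting group means from log2 CPM. In the Apc set (n = 18 libraries) r was 0.981 for Trpm5, 0.974 for Sh2d6, 0.955 for Pou2f3, 0.949 for Avil, 0.92 for Dclk1, 0.868 for Gnat3 and 0.844 for Alox5. For Ptgs1 it was 0.386 and for Il17rb 0.192. The points share libraries and their depths, and the counts of members above are not counts of independent observations.

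In the AOM set (n = 11) the members that varied together were Alox5 with r = 0.961, Trpm5 with 0.903, Pou2f3 with 0.878 and Sh2d6 with 0.876. Gnat3 had 0.545, Dclk1 0.435, Il17rb -0.073, Avil -0.216 and Ptgs1 -0.287. In the third set (n = 8) Alox5 had 0.924, Dclk1 0.87 and Il25 0.654, and Pou2f3 with -0.008 and Gnat3 with -0.014 were near 0. Members were averaged without scaling, so those that spread more weigh more in these means. In the third set the within-group SD on the log2 scale was 0.635 for Ptgs1, 0.186 for Dclk1 and 0.202 for Alox5. Ptgs1 had r = 0.756 with Dclk1 and 0.731 with Alox5 there, but -0.286 with Pou2f3 and -0.195 with Gnat3. In the AOM set Avil had an SD of 1.27 and r = -0.588 with Dclk1, which had 0.641 to 0.665 with Trpm5, Pou2f3 and Alox5. The median over all pairs of members was 0.845 in the Apc set, 0.18 in the AOM set and 0.256 in the third set.

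**Figure D3:**
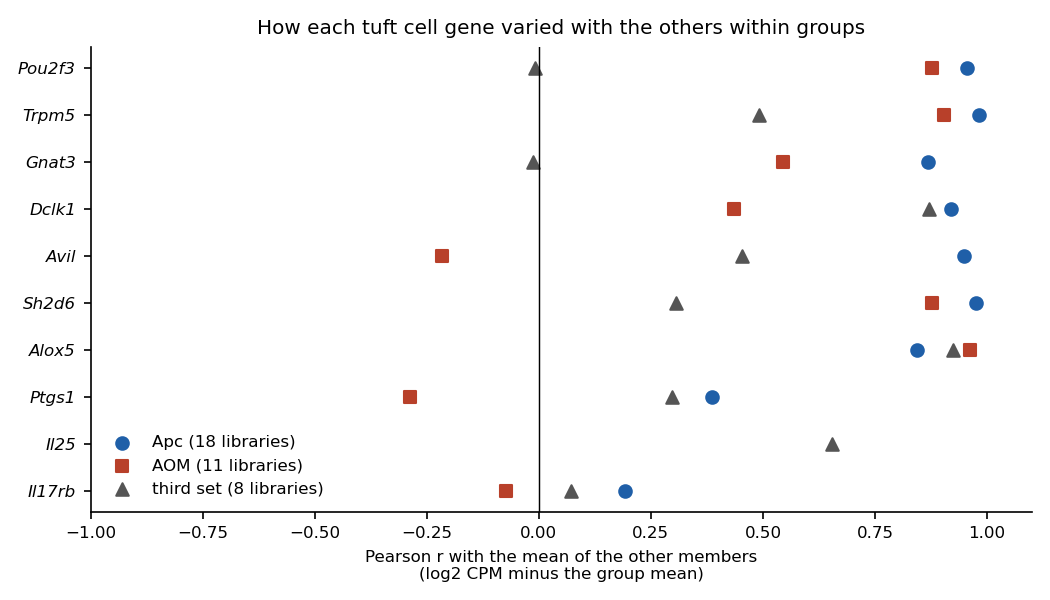
Pearson correlation of each member with the mean of the other members in each set, after group means were subtracted from log2 CPM. In the Apc set 7 members lie above 0.8 while Ptgs1 and Il17rb lie at 0.386 and 0.192, and in the AOM set Avil, Ptgs1 and Il17rb lie below 0.

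Avil left the group in the AOM set. It was at 60.2 and 6.18 CPM in black rice F libraries and at 14.9, 15.7 and 11.2 CPM in black rice M libraries, against 23.1, 33 and 8.91 CPM in control F libraries and 11.5, 11.2 and 66.3 CPM in control M libraries. In the Apc set and the third set no library exceeded 14.9 CPM. Counted per 100 Trpm5 reads of the same library, Avil had 62.4 to 169 reads in the Apc set and 74.3 to 102 reads in the third set, but 60.2 to 2810 reads in the AOM set. The 2 libraries with the highest Avil, black rice F replicate 1 and control M replicate 3, had 3.32 and 2.36 CPM of Trpm5.

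Of 21894 genes compared over the 11 AOM libraries, Sox4 followed Avil most closely, with r = 0.988 after group means were subtracted, and Dnmt3b came next with 0.987. Both were chosen after their values were seen. Sox4, a transcription factor, was at 268 and 40.1 CPM in black rice F libraries and at 60.2 to 83.6 CPM in black rice M libraries. It was at 64.3 to 203 CPM in control F libraries and at 53.3 to 210 CPM in control M libraries. Across the Apc set and the third set group means of Sox4 lay between 28.3 and 52.8 CPM. Avil had r = 0.538 with the neutrophil markers and -0.593 with the epithelial markers in these 11 libraries. The part of any cell type in the Avil values was not tested.

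Ptgs1 varied with smooth muscle markers more than with the other members. Its r with the mean of 10 smooth muscle markers was 0.961 in the third set (n = 8), 0.878 in the AOM set (n = 11) and 0.537 in the Apc set (n = 18). With enteric neuron and glia markers it was 0.996 in the third set, where the 10 single genes most like Ptgs1 had r of 0.997 to 0.999. In the third set Ptgs1 was at 33.5, 37.5, 52.8 and 81 CPM in black rice libraries, against 42.5, 69.2, 50.5 and 21.6 CPM in control libraries. The library at 21.6 CPM was also the lowest in summed smooth muscle markers, at 2990 CPM, against up to 27460 CPM in the other control libraries. Ptgs1 is also made by cells other than tuft cells. The part of smooth muscle in its values was not tested.

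**Figure D4:**
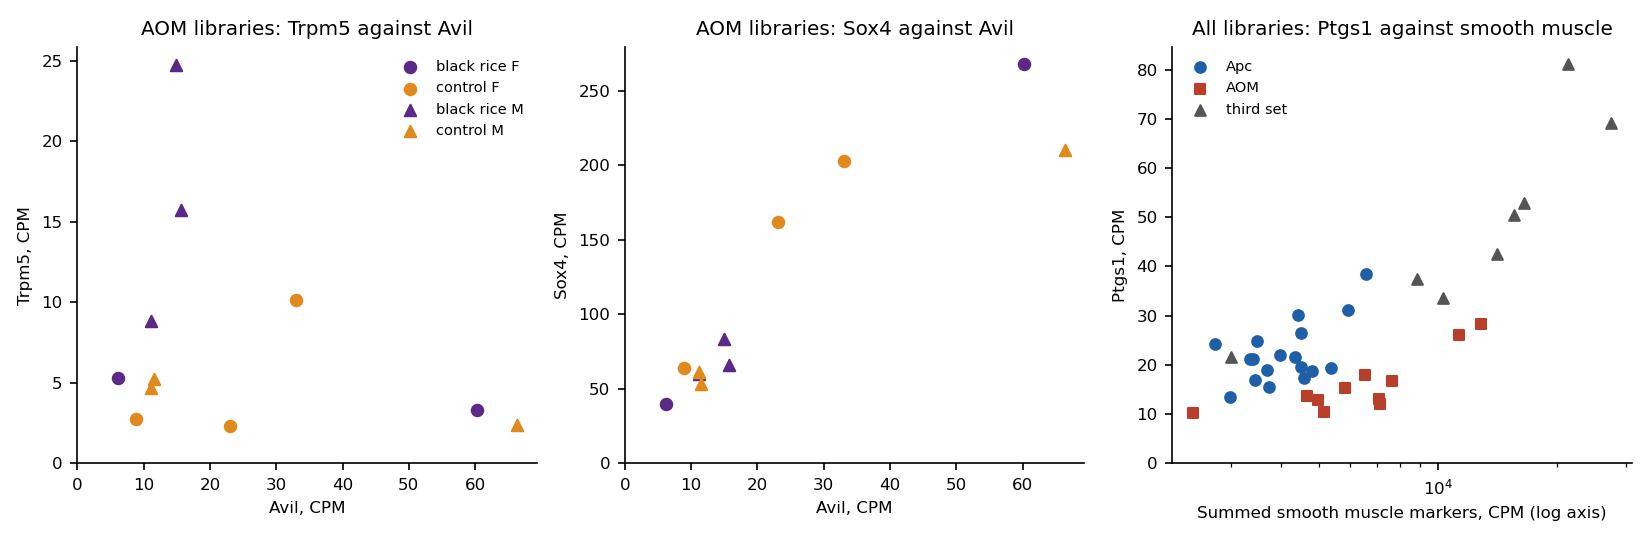
CPM of Trpm5 and of Sox4 against Avil in the 11 AOM libraries, and CPM of Ptgs1 against the summed CPM of smooth muscle markers (log axis) in all 37 libraries. The libraries at 60.2 and 66.3 CPM of Avil are low in Trpm5 and high in Sox4, and Ptgs1 is highest in libraries of the third set with much smooth muscle RNA.

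Gnat3 also differed in its proportion to Trpm5. Per 100 Trpm5 reads it had a median of 19.9 reads in the Apc set (range 11.4 to 30.4), 14.6 reads in the third set (8.39 to 22.9) and 8.84 reads in the AOM set (2.68 to 16.3). Alox5 had medians of 41 reads per 100 Trpm5 reads in the Apc set (17.3 to 62.6), 35.6 reads in the third set (29.5 to 45.3) and 42 reads in the AOM set (20.6 to 59.6). Within the AOM set its group medians ran from 24.9 reads in black rice M libraries to 56.9 reads in control F libraries. Sh2d6 had medians of 63.6 reads in the Apc set, 101 reads in the third set and 80.8 reads in the AOM set. These are proportions within a library, not levels per length, and the sets were not tested against each other.

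The 10 genes most like the members, by the mean over the 3 tables of r with the mean of 9 members, were Zfp827 (0.786), Matk (0.772), Hmx2 (0.768), Mmd (0.759), Sypl2 (0.754), mt-Tl1 (0.745), Sh2d7 (0.736), Rasgrf2 (0.717), Adora2b (0.715) and Shc3 (0.715). The measure covered 19785 genes and 37 libraries, and the members were averaged without scaling. Matk was on the list of 41 other tuft cell markers. Sh2d7 had r = 0.978 in the Apc set and 0.928 in the AOM set but 0.302 in the third set. The order depended on the tables used, since leaving out 1 table kept 1 or 2 of these 10 genes among its own first 10.

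The mean of the members weighs most those that spread most, Avil in the AOM set and Ptgs1 in the third set. By this measure the 41 other tuft cell markers followed the members loosely. Their median of mean r was 0.153, against 0.011 for all genes, and 4 of 41 were among the first 100 genes. In each of the 13 comparisons 0 of 41 passed the test. Their median change in AOM tissue of code M was 0.4 with 30 of 41 above 0, and in Apc tissue of code M 0.12 with 24 of 41 above 0. It was -0.16 with 10 of 41 above 0 in Apc tissue of code F, and -0.18 with 12 of 41 above 0 in the third set.

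The most abundant of these 41, Cd24a, Atp2a3 and Ildr1, are expressed by many other cells. Cd24a averaged 557 ± 107 CPM in AOM black rice M libraries and 587 ± 312 CPM in AOM control M libraries (SD, n = 3 each). Gfi1b and Matk, both named here after their values were seen, had larger changes. Gfi1b, a zinc finger repressor, averaged 1.02 ± 0.332 CPM in AOM black rice M libraries and 0.232 ± 0.091 CPM in AOM control M libraries. It had a log2 change of 2.27 (SE 0.45, edgeR adjusted p = 0.331) and Matk, a Csk-type kinase, of 1.6 (SE 0.37, edgeR adjusted p = 0.331). DESeq2 called both genes, with an adjusted p of 0.00611 for Gfi1b and 0.00887 for Matk, while edgeR and limma-voom did not. Over all settings their adjusted p reached up to 0.949.

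Of the 22 listed genes of the taste-type chain, 13 were tested and 0 were called in any comparison. Their median change was 0.69 in AOM tissue of code M with 10 of 13 above 0, and -0.18 in the third set with 1 of 13 above 0. Trpm4, a channel related to Trpm5 and more widely expressed, averaged 217 ± 30.2 CPM in AOM black rice M libraries and 117 ± 52.2 CPM in AOM control M libraries (SD, n = 3 each). Gnb1 averaged 404 ± 16.1 CPM in black rice M libraries and 370 ± 49.1 CPM in control M libraries, and Gnai2 472 ± 64.7 and 463 ± 9.05 CPM in the same groups. Of 23 names on the eicosanoid list, in which 1 gene that was not tested stands under 2 names, 18 or 19 were tested and 0 were called. Their median change was 0.12 in Apc tissue of code M, -0.39 in AOM tissue of code M and -0.04 in the third set. Hpgd, which degrades prostaglandins, averaged 232 ± 94.2 CPM in AOM black rice M libraries and 119 ± 41.8 CPM in AOM control M libraries, while Lta4h and Ptges3 averaged 93.7 ± 6.55 and 65.4 ± 10 CPM in black rice M libraries and 101 ± 16.1 and 83.8 ± 14.4 CPM in control M libraries.

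The type 2 list holds the partners and targets of tuft cell signalling, and 16 of its 21 genes were tested with 0 called in any comparison. The 2 most abundant of them, Clca1 and Retnlb, are goblet cell products. Clca1, a secreted goblet cell protein, was at 13800 to 39900 CPM in Apc black rice M libraries, against 1450 to 6860 CPM in Apc control M libraries, a log2 change of 3.03 (SE 0.83, edgeR adjusted p = 0.33). Retnlb, a goblet cell product induced by interleukin 13 in mice, averaged 2040 ± 1060 CPM in Apc black rice M libraries and 23.9 ± 26.1 CPM in Apc control M libraries (SD, n = 3 each), a log2 change of 6.38 (SE 2.05, edgeR adjusted p = 0.407). The groups did not overlap for either gene. DESeq2 called both, with adjusted p of 0.0295 and 0.0139, and edgeR and limma-voom called neither. Over all settings their adjusted p reached up to 0.685 for Clca1 and 0.781 for Retnlb.

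Mcpt1 and Mcpt2, mast cell proteases of the same list, are named after their values were seen. Mcpt1 averaged 0.447 ± 0.339 CPM in Apc black rice M libraries and 6.42 ± 8.45 CPM in Apc control M libraries (SD, n = 3 each), a log2 change of -3.75 (SE 1.11, edgeR adjusted p = 0.374). Its control libraries were at 0.564, 2.59 and 16.1 CPM, and without replicate 3 of them the log2 change was -1.82. Mcpt2 averaged 0.411 ± 0.305 CPM in black rice M libraries and 3.5 ± 3.99 CPM in control M libraries, a log2 change of -3.03 (SE 0.85, edgeR adjusted p = 0.337). Without the same library the change of Mcpt2 was -1.57. The groups overlapped for Mcpt1 and did not for Mcpt2, which DESeq2 called with an adjusted p of 0.0181 (up to 0.822 in other settings). Il13ra1, a receptor chain for interleukin 13, averaged 215 ± 32.6 CPM in black rice M libraries and 184 ± 66.2 CPM in control M libraries. The median change of the type 2 list was -0.07 in Apc tissue of code M with 5 of 16 above 0, and -0.78 in AOM tissue of code M with 3 of 16 above 0.

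The goblet cell markers, a list that also holds Clca1, summed to 33610 to 64230 CPM in Apc black rice M libraries. The sum was 8539 to 18660 CPM in Apc control M libraries and 16850 to 28710 CPM in Apc WT M libraries, with 0 of its 7 genes at 0 reads. Black rice minus control, 5 of 7 changes were above 0, with a median of 1.15. Clca1 alone averaged 27600 CPM of a mean sum of 50120 CPM in black rice M libraries. In control M libraries it averaged 3290 CPM of 15070 CPM. In AOM tissue of code M, where Trpm5 was higher with black rice, Clca1 was at 313 to 556 CPM in black rice libraries, against 211 to 3820 CPM in control libraries, and Retnlb at 16.7 to 171 CPM, against 8.28 to 245 CPM in control libraries. In the third set Retnlb averaged 287 ± 82.3 CPM in black rice libraries and 496 ± 343 CPM in control libraries (SD, n = 4 each). Clca1 and Retnlb overlapped between the diets in the AOM libraries of code M, where Trpm5 did not. The part of goblet cells in the tuft cell values was not tested.

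**Figure D5:**
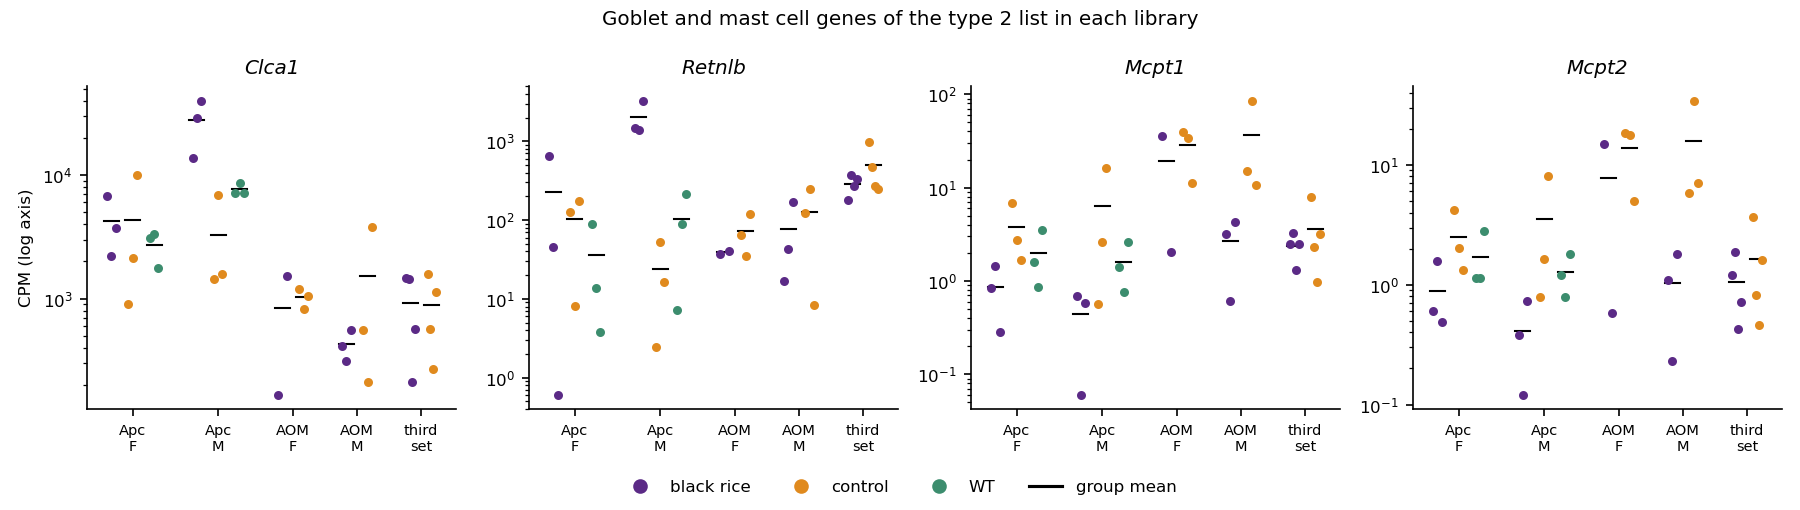
CPM of Clca1, Retnlb, Mcpt1 and Mcpt2 in each of the 37 libraries on log axes, with black rice, control and WT libraries as points and group means as lines. In code M of the Apc set Clca1 and Retnlb are higher in the 3 black rice libraries than in the 3 control libraries, and in the AOM set they overlap.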

How the data were processed

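Total RNA from 38 mouse intestinal libraries was captured on oligo(dT) and sequenced on DNBSEQ, per the labels' protocols. The deposited values were raw counts per gene, made by the authors with featureCounts 2.0.1 per the file headers of the AOM table and the table of the third set. The submitters' processing notes name FastQC, fastp, HISAT2, SAMtools, Subread and GRCm39, and strand use in counting is not given in the sources used here, so reads of overlapping antisense genes cannot be told apart. Symbols came from an annotation of GRCm38 and from RefSeq, and 52083 of 55416 identifiers matched. All samples were grouped from titles and treatment labels. CPM is the count divided by the library total, and depth is given above. Of 42 replicate pairs, 0 were identical. Deviations from the group mean over all genes were correlated between same-numbered libraries. Of 21 such pairs 11 were over 0.1, within a range of -0.621 to 0.481. Every pair was over 0.1 for AOM black rice M with control M (correlations of 0.113, 0.268 and 0.3) and Apc control M with WT M (0.4, 0.402 and 0.429). Each other comparison had a pair at or under 0.1. The labels name no shared animal, litter or day, and differently numbered libraries were not compared, so a pairing was not shown. The main fit used none, and a replicate block was run as an alternative.

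Each table was tested with edgeR 4.0.16 (quasi-likelihood, all groups in the fit, filterByExpr with a minimum count of 10, TMM, adjusted p under 0.05), in R 4.3.3. Alternatives were DESeq2 1.42.0, limma 3.58.1 with voom quality weights, other scaling, no filter, the compared groups alone, a replicate block, smooth muscle or epithelial markers as a covariate, each library left out, and all 12 AOM libraries. The tests were tested on simulated data. Members and gene lists were chosen with earlier results of these data known. Genes named beside the members are the 3 most abundant tested genes of each list and the 10 most like the members, and others are marked as chosen after their values were seen. Likeness used log2 CPM with a prior count of 2.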

Additional observations from a re-analysis of the deposited data

Results flagged for a closer look

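In the third set, 1 control library stood apart from the other 3 for 2 members. Replicate 4 had 3.25 CPM of Pou2f3, against 2.27 to 2.34 CPM in the other controls, and replicate 2 had 14.9 CPM of Avil, against 11.1 to 11.3 CPM in the other controls. Of 20 sets of 4 libraries examined in this way, chance flags about 1 in 20.

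For 4 members every black rice library lay on one side of the control mean in one set and on the other side in another set, and these differences between sets were not tested. The log2 change of Trpm5 was 0.95 in Apc tissue of code M and 2.08 in AOM tissue of code M, and -0.4 in the third set. Alox5 had 1.42 and 1.32 in the same groups of code M, and -0.5 in the third set. Sh2d6 had 1.36 and 1.57, and -0.33 in the third set. Avil had 0.79 in Apc tissue of code M and -0.2 in the third set, and -0.85 in AOM tissue of code M. In both groups with a negative change 1 control library of Avil was high, at 14.9 CPM in the third set and 66.3 CPM in AOM tissue of code M. The control medians were 11.3 and 11.5 CPM. Black rice libraries, at 10.4 to 12 and 11.2 to 15.7 CPM, lay on both sides of these medians. Changes of Pou2f3 (1.16 and -0.01), Gnat3 (1.21 and -0.22) and Il17rb (0.38 and -0.24) also differed in sign between Apc tissue of code M and the third set, without every library on one side.

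The AOM black rice F library left out of the comparisons had 12.5 CPM of Il17rb, against at most 3.51 CPM in the AOM control libraries. In the same library Trpm5, Pou2f3, Il25 and Sh2d6 had 0 reads.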

How the results depend on the processing

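No member passed the threshold under any of the alternatives run. The 20 member changes under an unadjusted p of 0.05 were recomputed in 424 fits, and 423 kept their direction. The exception was Il17rb, whose F minus M difference of the AOM diet changes was 0.98 with all 12 libraries, against -1.11. The lowest adjusted p of a member was 0.0528, for Trpm5 in AOM tissue of code M by DESeq2, and that gene's adjusted p reached up to 0.949 in other settings. The median change of the members in Apc tissue of code M was 1.89 by limma-voom, against 0.95 by edgeR, and that of the third set was -0.59 with epithelial markers as a covariate, against -0.23. The cause was not tested. With single libraries left out, medians ran from -1.78 to -0.8 for the F minus M difference of the Apc diet changes, from -0.32 to 0.73 for AOM F (0.73 without control F replicate 2), from 0.63 to 1.02 for AOM M and from -1.26 to -0.24 for the same difference in the AOM set.

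With the replicate block, medians were 1.1 in Apc tissue of code M, 0.65 in AOM tissue of code M and -0.21 in the third set, with 0 members called, and the block changed no other member call. Over all genes it called 203 for the difference of the AOM diet changes, F minus M, against 0 without it. It called 0 genes for black rice minus control in Apc tissue of code M, against 7, 0 for Apc black rice minus WT, against 3, and 10 for Apc F minus M, against 16. Per comparison edgeR called 0 to 16 genes, DESeq2 3 to 528 and limma-voom 0 to 128.

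Groups held 2 to 4 libraries and Il25 had at most 24 reads per library, which limits the precision.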
